A study of Mus musculus with 2 samples.

Results

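The nuclear genes of oxidative phosphorylation were followed in 2 libraries of mouse lung dendritic cells. Members were chosen by symbol alone: every gene row beginning Nduf, Uqcr or Atp5, the rows Sdha, Sdhb, Sdhc and Sdhd with the assembly factors whose symbols extend them, and the rows that begin Cox and a digit of 4 to 8. This gave 97 rows (96 symbols, since Atp5o has 2 gene IDs) of 31053 in the tables. By complex, 44 belong to complex I (7 core subunits, 29 accessory subunits and 8 assembly factors), 8 to complex II (4 subunits and 4 assembly factors), 8 to complex III, 20 to complex IV (11 subunits, 8 tissue-restricted isoforms and 1 assembly factor) and 17 to complex V (16 rows of subunits and 1 further factor). Ndufa4 is counted in complex IV, where its protein is known to sit despite its symbol. The genes lie on 19 chromosomes.

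The cells came from lungs of C57BL/6 mice aged 8 to 10 weeks, digested with dispase, and were collected on a flow sorter. The cDC2 library holds cells sorted as positive for CD172a, the product of Sirpa, and the cDC1 library holds cells sorted as positive for the chemokine receptor XCR1. Conventional dendritic cells (cDCs) take up antigen in tissue and present it to T cells. No treatment is named, each group is 1 library, and the labels do not say how many mice went into either. Differences between the libraries therefore cannot be told apart from differences between mice, sorts or library preparations, no p-value could be had, and cells are not replicates. Values are unique molecular identifiers (UMIs) summed over cells and scaled to 1000000 UMIs of the group (CPM). Intervals in parentheses after a CPM or a ratio are 95% counting intervals, which cover counting error only. Differences were read by 2 rules of size, at least 2-fold, and at least 25% higher or 20% lower, in genes with a mean of 10 CPM or more over the groups compared, called measured below. Shares of all measured genes are given beside the members but were not matched to them for level. Counting error is larger at low levels, so genes of low level pass these rules more easily.

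Oxidative phosphorylation passes electrons from NADH through complex I (NADH dehydrogenase), or from succinate through complex II (succinate dehydrogenase), to complex III (cytochrome bc1) and complex IV (cytochrome c oxidase), and complex V (ATP synthase) uses the proton gradient they build to make ATP. Complexes I, III, IV and V each combine nuclear subunits with subunits encoded by mitochondrial DNA, whereas complex II is wholly nuclear. In dendritic cells, activation through innate receptors in culture is known to shift metabolism from respiration toward glycolysis.

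Upstream sequences are shown for 5 complex I and IV members: Cox6b2, the member that differed most between the libraries, with Cox6b1, its widely expressed counterpart; Cox5a, which was higher in mature cells; Ndufa6, which was lower in them; and Cox6a1, whose printed stretch holds the most matches among these. Each is the stretch before the RefSeq transcription start that lies in no annotated exon (GRCm38.p6, RefSeq, 5' to 3', at most 250 bases). Capitals mark matches to NRF1 (GCATGCGC), ETS (CCGGAAG), YY1 (AAGATGGC) or GC box (GGGCGG) letters on either strand.
Cox6b2 (chr7:4753095-4753225, minus strand): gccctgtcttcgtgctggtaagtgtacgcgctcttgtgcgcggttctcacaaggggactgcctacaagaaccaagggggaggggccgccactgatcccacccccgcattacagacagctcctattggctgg
Cox6b1 (chr7:30626152-30626364, minus strand): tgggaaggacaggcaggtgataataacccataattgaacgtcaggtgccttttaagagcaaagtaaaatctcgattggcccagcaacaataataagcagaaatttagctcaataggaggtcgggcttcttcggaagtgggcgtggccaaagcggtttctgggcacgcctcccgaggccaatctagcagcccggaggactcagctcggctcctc
Cox5a (chr9:57520982-57521231, plus strand): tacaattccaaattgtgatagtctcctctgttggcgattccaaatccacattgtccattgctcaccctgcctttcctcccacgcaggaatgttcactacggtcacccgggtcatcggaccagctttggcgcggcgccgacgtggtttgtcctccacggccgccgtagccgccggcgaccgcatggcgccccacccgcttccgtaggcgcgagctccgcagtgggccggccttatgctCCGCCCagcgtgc
Ndufa6 (chr15:82354323-82354541, minus strand): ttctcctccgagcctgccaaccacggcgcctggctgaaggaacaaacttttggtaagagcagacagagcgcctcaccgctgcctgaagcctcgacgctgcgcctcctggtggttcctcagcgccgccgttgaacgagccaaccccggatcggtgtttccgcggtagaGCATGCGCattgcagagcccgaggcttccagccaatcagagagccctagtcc
Cox6a1 (chr5:115348982-115349129, minus strand): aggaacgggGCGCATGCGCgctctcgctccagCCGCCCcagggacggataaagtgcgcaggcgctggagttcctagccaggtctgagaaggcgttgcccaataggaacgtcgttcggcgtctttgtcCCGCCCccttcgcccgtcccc
The printed Cox6b2 and Cox6b1 stretches hold none of the 4 motifs. The full windows of 250 bases, which also reach into annotated exons, hold a GC box in Cox6b2 and ETS letters in Cox6b1. No motif holds the letters of another. Of the 97 members, 81 were matched to the promoter table, and 70 of the measured members had a window of 250 bases. NRF1 letters occurred in 8 of these 70 (11.4%), against 2.58% of 26734 genes with such a window, and ETS letters in 14 (20%) against 7.88%. GC box letters, the shortest and commonest of the 4, occurred in 29 (41.4%) against 35.6%, and YY1 letters in 1 (1.43%) against 1.84%. The comparison genes were not limited to measured genes as the members were. Whether the members differ from other measured genes was therefore not tested. In Cox6a1 the 2 NRF1 matches are the same letters read on both strands, which overlap. A match is a run of letters and not a measured site.

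Barcodes with under 500 genes, under 1000 UMIs or over 10% mitochondrial UMIs were dropped. This left 2835 cells with 38613693 UMIs in the cDC2 library and 2574 cells with 35071861 UMIs in the cDC1 library, with medians of 12655 and 12866 UMIs per cell, and 6 barcodes occurred in both. The genes of the sort followed the labels: Sirpa stood at 122.6 CPM in the cDC2 library and 5.62 CPM in the cDC1 library, and Xcr1 at 4.84 CPM in the cDC2 library and 248.1 CPM in the cDC1 library. The CD172a sort also held 150 cells gated as macrophages by complement and related genes, 44 as monocytes or neutrophils and 36 as B cells, whereas the XCR1 sort held 11, 3 and 5. Within each library cells were gated by marker genes: mature (Fscn1 with Ccr7), Ccr7-positive but Fscn1-low, cycling, heat-shock-high, and in the cDC1 library Il12b-positive and Plet1-positive, or in the cDC2 library Cd7 Plac8 and Mrc1 Il1rl1 cells. Cells with identity markers of their sort that met none of these gates are called resting. Mature and cycling cells were gated before identity markers were required, so their cDC1 or cDC2 name follows the library alone. The 6 cDC2 identity markers summed to 94.3 CPM in mature, 219 CPM in cycling and 47.5 CPM in resting cells of the cDC1 library. The 6 cDC1 identity markers summed to 287, 258 and 310 CPM in those states of the cDC2 library. In all, 14 gated groups had at least 50 cells, and no member of the oxidative phosphorylation rule is a marker. The 42 heat-shock-high cells of the cDC2 library fell under that number and are not compared below.

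Nuclear oxidative phosphorylation transcripts made up 1.45% of all UMIs of the cDC2 library and 1.40% of those of the cDC1 library (560917 and 489386 UMIs). Of the 97 rows, 94 had at least 1 UMI, 81 reached a mean of 10 CPM over the libraries, 44 reached 100 CPM and 13 had UMIs but stayed under 10 CPM. The 3 rows at 0 in both libraries were Cox7b2, Cox8c and the second Atp5o ID, and a count of 0 allows up to 3 counts (a one-sided 95% limit, unlike the intervals above). The kit counts the 3' end of a transcript once, so transcript length plays little part. Whether different genes were captured equally well was not tested, so levels of different genes are compared as counts only. Copies and pseudogenes of many subunits exist, and the labels and headers do not say how reads that match several places were counted.

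The most abundant members were small subunits of complexes V, IV and III. In complex V, Atp5e, the epsilon subunit, led all members with 752 CPM in the cDC2 library and 729 CPM in the cDC1 library, followed by Atp5l with 510 and 465 CPM and Atp5h with 434 and 403 CPM. In complex IV, Cox4i1, the regulatory subunit IV, stood at 655 CPM in the cDC2 library and 624 CPM in the cDC1 library, and Cox8a at 610 and 506 CPM. In complex III, Uqcrh, the hinge subunit that helps cytochrome c dock, stood at 507 CPM in the cDC2 library and 500.3 CPM in the cDC1 library. Its core proteins Uqcrc1 and Uqcrc2 had the lowest levels of that complex in both libraries, between 58.6 and 75.4 CPM. Complex I transcripts were lower: Ndufa6, Ndufa2 and Ndufa13 led at 253, 256 and 233 CPM in the cDC2 library and 285, 240 and 206 CPM in the cDC1 library. The 7 core subunits of complex I, which carry the electron-transfer centres, summed to 320 CPM in the cDC2 library and 278 CPM in the cDC1 library. The 29 accessory subunits summed to 3219 and 3007 CPM. Complex II had the lowest sum of the complexes, with its 4 subunits at 208 and 186 CPM, led by the flavoprotein Sdha at 72.8 and 61.3 CPM. These sums run over different numbers of genes and do not compare levels per gene.

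**Figure D1:**
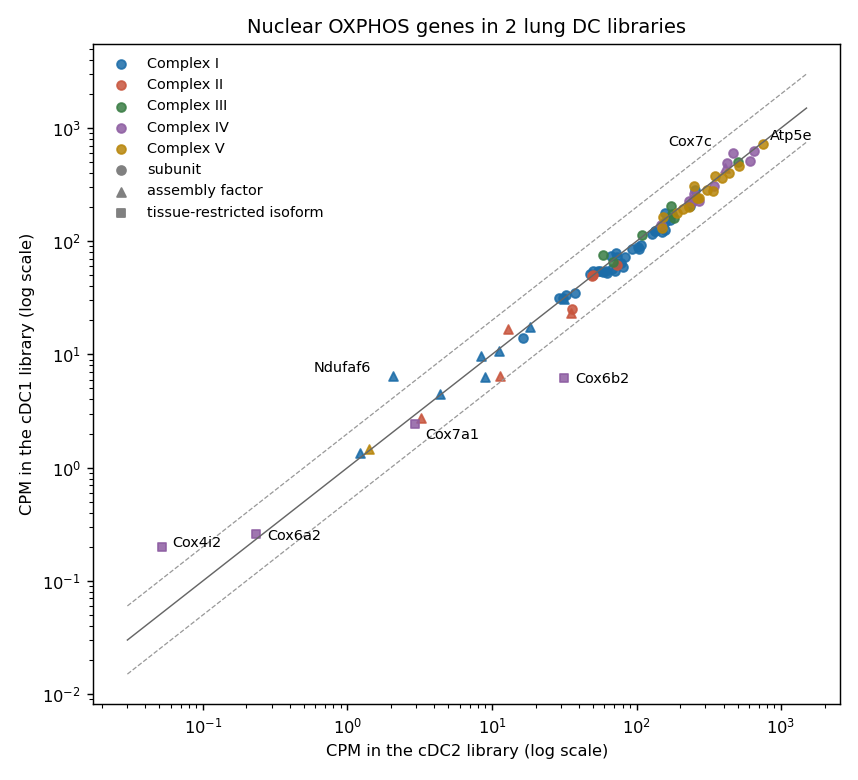
Level of each nuclear oxidative phosphorylation gene with UMIs in both libraries, CPM in the cDC2 library (horizontal, log scale) against CPM in the cDC1 library (vertical, log scale), coloured by complex and shaped by role; the solid line marks equal levels and the dashed lines a 2-fold difference. Most points lie close to the solid line, and Cox6b2 (31.5 CPM in cDC2, 6.19 CPM in cDC1) lies below the lower dashed line.

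Of the isoforms known from other tissues, most were close to absent. Cox4i2 (lung and hypoxia isoform of subunit IV), Cox6a2 and Cox8b (heart and muscle isoforms) and Ndufa4l2 each stood at 0.3 CPM or less in both libraries, while their widely expressed counterparts Cox4i1, Cox6a1, Cox8a and Ndufa4 stood between 139 and 655 CPM. Cox7a1, the heart and muscle isoform of subunit VIIa, stood at 2.93 CPM in the cDC2 library and 2.42 CPM in the cDC1 library, against 230 and 224 CPM for Cox7a2. The 3 genes that encode the same mature c-ring subunit of ATP synthase were all present: Atp5g2 stood at 388 CPM in the cDC2 library and 365 CPM in the cDC1 library, Atp5g1 at 191 and 177 CPM, and Atp5g3 at 154 and 163 CPM.

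The exception was Cox6b2, the isoform of subunit VIb known chiefly from testis. It stood at 31.5 CPM (29.7 to 33.3) in the cDC2 library and 6.19 CPM (5.39 to 7.07) in the cDC1 library, 5.09-fold higher in cDC2 (4.40 to 5.90). It was the 1 measured member past 2-fold between the libraries, where 6.75% of 6207 measured genes were at least 2-fold higher in cDC2 and 4.43% at least 2-fold lower. The gene lies on chromosome 7 (4751792 to 4753094, minus strand, GRCm38) and overlaps no other annotated gene. Among resting cells it stood at 30.5 CPM in cDC2 and 4.95 CPM in cDC1, and among cycling cells at 41.0 and 11.4 CPM, higher in cDC2 in both states. In the cDC2 library its level was 31.9 CPM in Ccr7-positive, 31.5 CPM in Cd7 Plac8 and 35.4 CPM in Mrc1 Il1rl1 cells, whereas it was 15.3 CPM in mature cells and 14.4 CPM in macrophage-gated cells of that sort. Every gated group of the cDC1 library lay at or below 11.4 CPM, including the mature cells, where 1.93 CPM rest on 2 UMIs. Cox6b1, by contrast, differed little, with 345 CPM in the cDC2 library and 309 CPM in the cDC1 library.

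The nuclear genes as a whole were close to equal in the 2 libraries. Of 81 measured members, 5 were at least 25% higher in cDC2 and 3 at least 20% lower, shares below those of all measured genes (23.2% higher and 18% lower). Because the 2 sets were not matched for level, whether the members are steadier than other genes was not tested. The median log2 ratio of the members, cDC2 over cDC1, was 0.11, against 0.05 for all measured genes, and their summed ratio was 1.04 (1.04 to 1.05). By complex, the summed ratio was 1.08 for complex I subunits, 1.12 for complex II, 1.004 for complex III, 1.01 for complex IV and 1.05 for complex V. With the scale set by all measured genes or without ribosomal and mitochondrial UMIs, the sums of complexes III and IV turn to slightly lower in cDC2 (log2 -0.04 and -0.03, or -0.03 and -0.01).

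The members past these smaller limits came from complexes I to IV. Ndufa11, an accessory membrane-arm subunit of complex I, was 1.29-fold higher in cDC2 (1.22 to 1.37). Sdhc, a membrane anchor of succinate dehydrogenase, stood at 35.8 CPM in cDC2 and 25.4 CPM in cDC1, and Sdhaf1, which helps insert the iron-sulfur clusters of that enzyme, at 35.1 and 23.4 CPM. On the other side, Cox7c, a small subunit of cytochrome c oxidase, stood at 465 CPM in the cDC2 library and 603 CPM in the cDC1 library (1.3-fold lower in cDC2, 1.27 to 1.32). Uqcrc2, a core protein of complex III, stood at 58.6 CPM in cDC2 and 75.4 CPM in cDC1, and Sdhaf2, which helps attach the flavin to Sdha, at 12.9 and 16.9 CPM. Sdhaf1, Cox6b2, Cox7c, Uqcrc2 and Sdhaf2 also passed these limits in the same direction among resting cells alone. Among resting cells 5 of 81 members were at least 25% higher in cDC2 and 4 at least 20% lower (24.3% and 21% of all measured genes), and Cox6b2 alone passed 2-fold (7.78% of all genes). The ends of the range in complex V were Atp5d (340 CPM in cDC2, 276 CPM in cDC1) and Atp5c1 (248 CPM in cDC2, 305 CPM in cDC1), the delta and gamma subunits, both within the 25% and 20% limits. The assembly factor Ndufaf6 was 3.11-fold lower in cDC2 (2.40 to 4.07) but at 2.07 against 6.44 CPM it lay under the limit for measured genes.

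Among gated states of at least 50 cells, mature cells had the smallest share of these transcripts in the cDC2 library and nearly the smallest in the cDC1 library. They made up 1.29% (1.27 to 1.32) of UMIs in the 63 mature cDC2 and 1.16% (1.14 to 1.19) in the 80 mature cDC1, against 1.43% (1.43 to 1.44) in the 810 resting cDC2 and 1.41% (1.40 to 1.42) in the 1309 resting cDC1. Ccr7-positive, Fscn1-low cells had 1.35% in cDC2 and 1.16% in cDC1. Cycling cells had the largest share, 1.63% in cycling cDC2 (336 cells) and 1.601% in cycling cDC1 (267 cells). Single cells overlapped widely, the middle 80% of mature cDC1 running from 0.859% to 1.45% and that of resting cDC1 from 1.06% to 1.77%. The SD between resting cells was 0.265 percentage points in cDC2 and 0.286 in cDC1, above the 0.113 and 0.109 that counting alone gives. Resting cells of different depth had similar shares: from the shallowest through the middle to the deepest of 3 depth classes the share was 1.44%, 1.42% and 1.44% in cDC2 and 1.38%, 1.41% and 1.43% in cDC1.

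**Figure D2:**
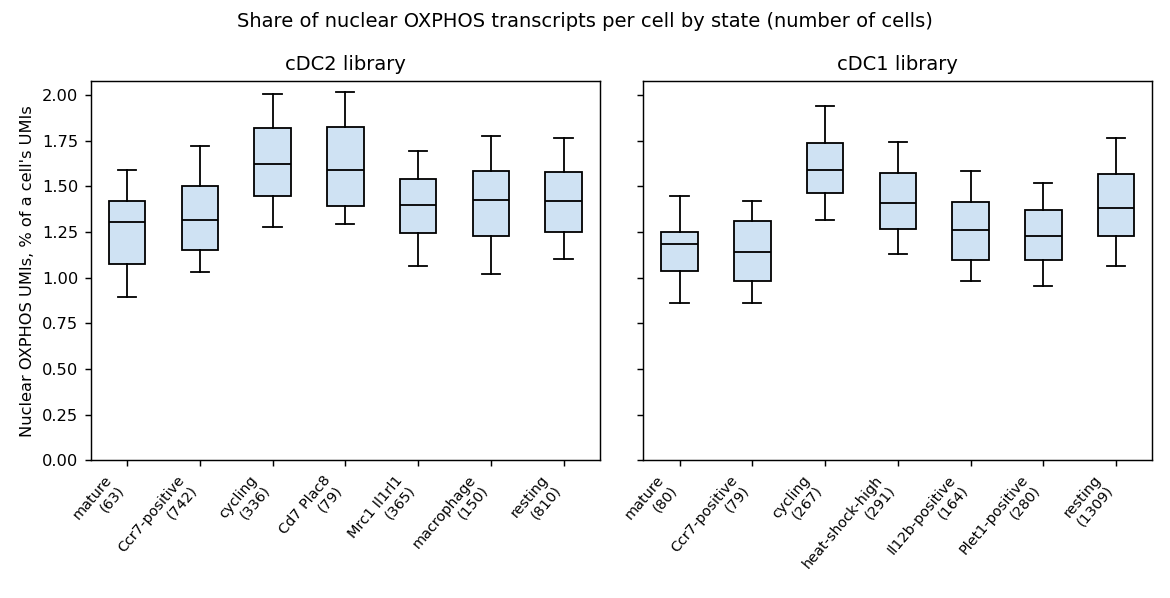
Nuclear oxidative phosphorylation UMIs as a percentage of each cell's UMIs (vertical) by marker-gated state (horizontal, number of cells in brackets) in the cDC2 library (left) and the cDC1 library (right); boxes show the median and quartiles over cells and whiskers the 10th and 90th percentiles. Cycling cells have the highest medians of the cDC1 and cDC2 groups (1.62% in cDC2, 1.59% in cDC1), and mature and Ccr7-positive cells lie lower than resting cells.

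Mature dendritic cells have left the antigen-sampling state, express the migration receptor Ccr7 and the actin-bundling protein Fscn1, and carry antigen to lymph nodes. Their nuclear oxidative phosphorylation transcripts were lower than in resting cells of the same library. The summed level was 12907 CPM in mature cells against 14331 CPM in resting cells of the cDC2 library, a ratio of 0.901 (0.883 to 0.919), and 11643 against 14100.3 CPM in the cDC1 library, a ratio of 0.826 (0.811 to 0.841). In cDC2, 26 of 82 measured members were at least 20% lower and 8 at least 25% higher, where 25.7% of all measured genes were lower and 38.9% higher. In cDC1, 34 of 80 were lower and 6 higher, where 34.6% of all measured genes were lower and 35.2% higher. The median log2 ratio was -0.14 in cDC2 and -0.26 in cDC1, against 0.14 and 0.01 for all measured genes, and 70 of 82 and 65 of 80 members lay below that all-gene median. In both libraries together, 18 of 80 members were at least 20% lower (22.5%, against 19.4% of all measured genes) and 3 at least 25% higher (3.75% against 25.3%). Ribosomal protein transcripts also differed, at 17.7% of UMIs in mature and 22.9% in resting cDC2 and 14.95% in mature and 24.5% in resting cDC1, and their part in these ratios was not tested. With ribosomal and mitochondrial UMIs left out of the totals, the summed log2 ratios were -0.24 in cDC2 and -0.45 in cDC1. In mature cDC2 the 8 macrophage markers summed to 114 CPM with 0 of them at 0, against 81.1 CPM in resting cDC2, and the 6 monocyte and neutrophil markers to 22.9 against 28.7 CPM. In mature cDC1 the macrophage markers summed to 1.93 CPM with 6 of 8 at 0, against 5.19 CPM in resting cDC1, and all 6 monocyte and neutrophil markers were at 0. The 3 heat-shock markers, genes which dissociation is known to raise, summed to 600 CPM in mature and 72.3 CPM in resting cDC2. In cDC1 the sums were 1204 and 155 CPM. The gates shape this contrast, because heat-shock-high cells were taken out of the resting cells but not out of the mature cells, which were gated earlier. Over all cells these markers summed to 392 CPM in the cDC2 library and 997 CPM in the cDC1 library. The part of any of these in the members' ratios was not tested.

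Complex I had the lowest summed ratio of the 5 complexes in both libraries. Its 36 subunits summed to 3000.4 CPM in mature and 3548 CPM in resting cDC2 (ratio 0.846, 0.811 to 0.882) and to 2440 CPM in mature and 3336 CPM in resting cDC1 (0.731, 0.702 to 0.761). At the single-gene level 14 of 36 were at least 20% lower in cDC2 and 17 in cDC1, 10 of them in both, where 25.7%, 34.6% and 19.4% of all measured genes were lower, and 9 of those 10 are accessory subunits. Ndufb5, an accessory subunit of the membrane arm, had the lowest ratio of the complex in each library, with 72.5 CPM in mature and 134 CPM in resting cDC2 (1.85-fold lower, 1.42 to 2.45) and 54.9 CPM in mature and 130 CPM in resting cDC1 (2.37-fold lower, 1.82 to 3.14). Ndufb10, of the same arm, stood at 72.5 CPM in mature and 131 CPM in resting cDC2 and at 61.6 CPM in mature and 119 CPM in resting cDC1. Mrpl47, which overlaps Ndufb5 on the other strand, stood at 0 CPM in mature and 1.61 CPM in resting cDC2. In cDC1 it stood at 0.96 and 2.72 CPM. Ndufa6, an accessory subunit bound to the acyl carrier protein, stood at 193 CPM in mature and 256 CPM in resting cDC2 and at 144 CPM in mature and 309 CPM in resting cDC1. Mature cells of both libraries lay below resting cells of both libraries for Ndufb5, Ndufb10 and Ndufa6. Ndufa6, Ndufa8, Ndufb5 and Ndufb11 passed 2-fold in cDC1 (13.4% of all measured genes were at least 2-fold lower there), and none of them did in cDC2 (8.2%). The core subunits were less uniform: Ndufs8 was lower in both libraries, at 36.9 CPM in mature and 63.9 CPM in resting cDC2 and 32.7 and 54.1 CPM in cDC1, while Ndufv1 and Ndufv2 stayed within the smaller limits in both.

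3 members stood past these limits in opposite directions in the 2 libraries. Ndufs1, the largest core subunit, stood at 10.2 CPM in mature and 13.5 CPM in resting cDC2, but at 18.3 CPM in mature and 13.4 CPM in resting cDC1. Ndufb6 had log2 ratios of 0.39 in cDC2 and -0.36 in cDC1, and the assembly factor Ndufaf2 of -0.39 and 0.37. The intervals of these ratios include 1, so no difference was detectable at this depth.

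**Figure D3:**
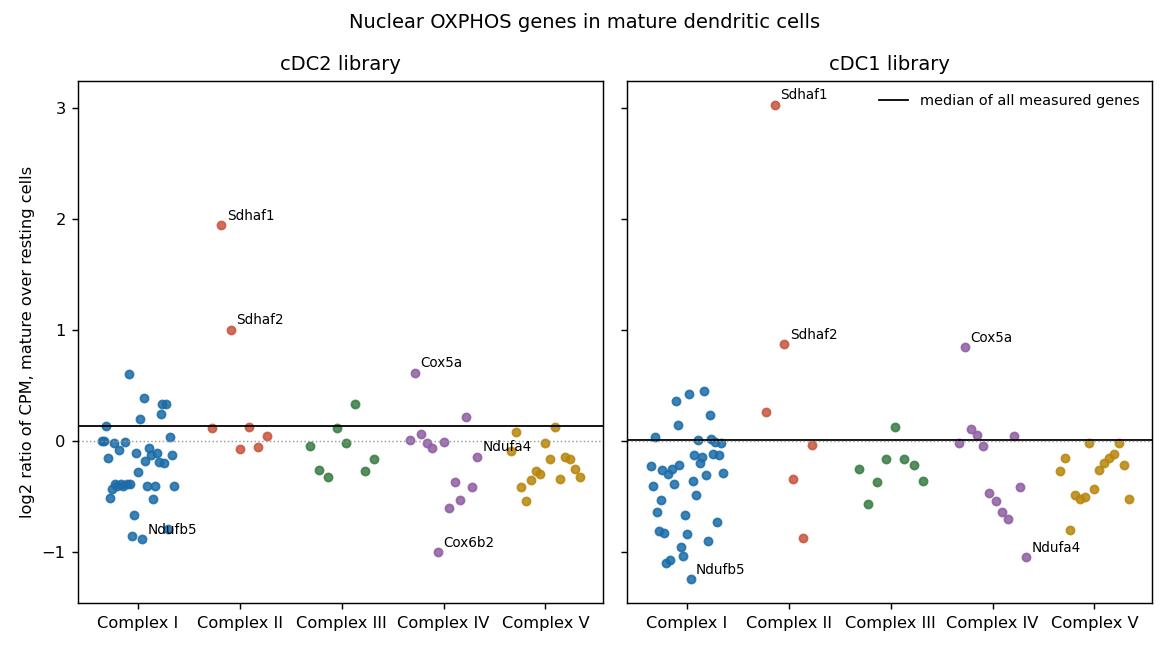
log2 ratio of CPM in mature over resting cells (vertical) for each measured nuclear oxidative phosphorylation gene, grouped by complex (horizontal), in the cDC2 library (left) and the cDC1 library (right); the black line is the median of all measured genes and the dotted line no difference. Most genes lie below the black line, while Sdhaf1 (1.95 in cDC2, 3.03 in cDC1), Sdhaf2 (1.01 and 0.87) and Cox5a (0.62 and 0.84) lie above it in both libraries.

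Of the 4 assembly factors of complex II, Sdhaf1 and Sdhaf2 were higher in mature cells of both libraries. Sdhaf4 and Sdhaf3 were not: Sdhaf4 stood at 12.7 CPM in mature and 13.4 CPM in resting cDC2 and at 2.89 CPM (3 UMIs) in mature and 6.28 CPM in resting cDC1, and Sdhaf3 had 1 and 2 UMIs in the mature cells. Sdhaf1 (ENSMUSG00000074211; chromosome 7, 30321406 to 30323895, minus strand) had 114.5 CPM in mature and 29.7 CPM in resting cDC2, 3.85-fold higher (3.01 to 4.90), and 144.4 CPM in mature and 17.7 CPM in resting cDC1, 8.17-fold higher (6.66 to 9.98). It had the highest ratio of all measured members in each library, where 13.2% of all genes in cDC2 and 14.6% in cDC1 were at least 2-fold higher. Ccr7-positive, Fscn1-low cells lay between mature and resting cells, with 41.1 CPM in cDC2 and 48.7 CPM in cDC1. The gene overlaps E130208F15Rik on the other strand, and whether counting used strand is not stated. That gene stood at 12.7 CPM in mature and 7.05 CPM in resting cDC2 and at 8.66 CPM in mature and 2.78 CPM in resting cDC1. Sdhaf2 had 21.6 CPM in mature and 10.8 CPM in resting cDC2 and 26.0 CPM in mature and 14.2 CPM in resting cDC1. Its partner on the other strand, Cpsf7, was also higher, at 40.7 CPM in mature and 15.9 CPM in resting cDC2 and at 28.9 CPM in mature and 16.8 CPM in resting cDC1. The 4 subunits of the enzyme itself summed to 204 CPM in mature and 193 CPM in resting cDC2 and to 170.4 CPM in mature and 183 CPM in resting cDC1, ratios whose intervals include 1. The slightly higher sum in cDC2 turned lower set against the all-gene median (log2 -0.06) and without ribosomal and mitochondrial UMIs (-0.02). Sdhc was 1.14 higher on the log2 scale in mature cDC2 than in mature cDC1 (31.8 against 14.4 CPM), levels that rest on few UMIs, so the size of this ratio is uncertain. It was the 1 measured member past 2-fold between the mature cells of the 2 libraries (9.85% of all measured genes were at least 2-fold higher in cDC2). In that comparison 27 of 80 members were at least 25% higher in cDC2 and 4 at least 20% lower, against 38.1% and 19.6% of all measured genes.

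Complex III summed to a ratio of 0.900 in cDC2 and 0.832 in cDC1, and none of its 8 subunits was at least 20% lower in both libraries. In complex IV the sums were 3635 CPM in mature and 3745 CPM in resting cDC2 (ratio 0.971, 0.934 to 1.01) and 3529 and 3846 CPM in cDC1 (0.918, 0.887 to 0.949), and its subunits differed in direction. Cox5a, which binds to subunit IV, was 1.53-fold higher in mature cDC2 (1.35 to 1.73; 373 CPM against 243 CPM in resting cells) and 1.80-fold higher in mature cDC1 (1.61 to 1.99; 383 CPM against 213 CPM). Gm26631 overlaps Cox5a on the other strand but is not among the counted genes. Its level, and any part of it in the Cox5a counts, could not be read. Cox7a2 and Cox7b were lower in both, Cox7a2 at 145.0 CPM in mature and 220 CPM in resting cDC2 and 150.2 and 219 CPM in cDC1. Cox4i1, the partner of Cox5a, differed by less than its counting interval: 659 CPM in mature and 653 CPM in resting cDC2, and 628 and 636 CPM in cDC1. Ndufa4 was 2.06-fold lower in mature cDC1 (1.64 to 2.63; 71.2 CPM against 147 CPM) but stood at 116 CPM in mature and 127 CPM in resting cDC2. In complex V all 15 measured subunits lay below the all-gene median in both libraries. The sums were 4127 CPM in mature and 4723 CPM in resting cDC2 (ratio 0.874) and 3667 and 4585 CPM in cDC1 (0.800). Atp5c1, Atp5d and Atp5e, the gamma, delta and epsilon subunits, and Atp5o, which joins the catalytic part to the stator, were at least 20% lower in both.

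The 13 mitochondrially encoded subunits did not follow the nuclear ones. They summed to 43722 CPM in mature and 38837 CPM in resting cDC2 (ratio 1.13, 1.11 to 1.14) and to 43838 CPM in mature and 39432 CPM in resting cDC1 (1.11, 1.10 to 1.12), so that 3.39 mitochondrial UMIs stood beside each nuclear one in mature and 2.71 in resting cDC2, and 3.76 and 2.80 in cDC1. Without ribosomal and mitochondrial UMIs in the totals, the direction of the mitochondrial sum held in cDC2 (log2 0.08) and turned in cDC1 (-0.02). Cells above 10% mitochondrial UMIs had been left out, which bounds this measure from above.

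**Figure D4:**
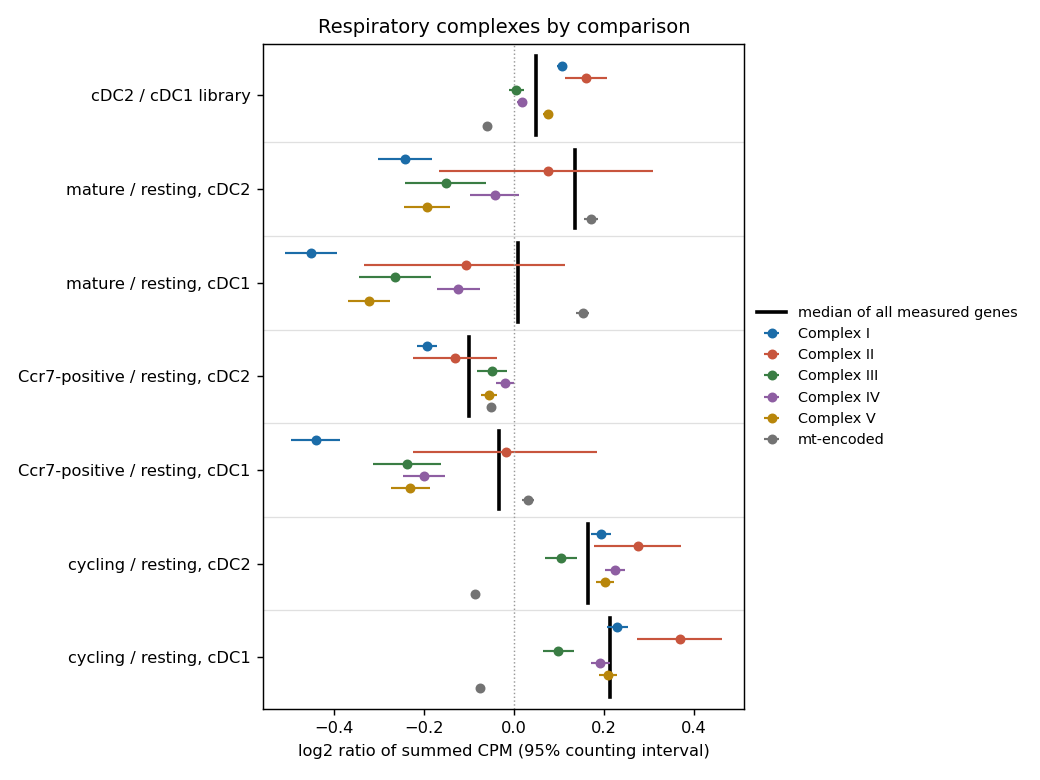
log2 ratio of summed CPM (horizontal, with 95% counting intervals) for the nuclear subunits of each complex and the mitochondrially encoded subunits, in 7 comparisons (vertical); the black bars are the medians of all measured genes. Complex I has the lowest ratio of the 5 complexes in mature and Ccr7-positive cells of both libraries, and in cycling cells complexes I, IV and V lie close to the all-gene median.

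Ccr7-positive, Fscn1-low cells also had lower complex I transcripts in both libraries. They formed a large group in the cDC2 library (742 cells) and a small one in the cDC1 library (79 cells), where they also carried Il12b at 1552 CPM. Complex I subunits summed to 3102 CPM in Ccr7-positive and 3548 CPM in resting cDC2 (ratio 0.874, 0.861 to 0.888) and to 2457 and 3336 CPM in cDC1 (0.736, 0.709 to 0.765). Its 7 core subunits had ratios of 0.746 in cDC2 and 0.671 in cDC1. Complexes IV and V had ratios of 0.986 and 0.962 in cDC2, and of 0.870 and 0.852 in cDC1. In cDC2, 11 of 82 members were at least 20% lower (24.5% of all measured genes) and 10 of the 11 are complex I subunits, and in cDC1 37 of 79 (29.5% of all genes), 23 of them complex I subunits. At least 25% higher were 1 member in cDC2, Sdhaf1, and 4 in cDC1, Sdhaf1, Sdhaf2, Sdhc and Sdhd, all of complex II (8.73% and 25.9% of all genes). The 9 of 79 members lower in both libraries (11.4%, against 13.05% of 5303 measured genes) all belong to complex I, and Ndufs3, Ndufs7 and Ndufv2 are core subunits among them. Ndufs3, a core subunit of the peripheral arm, stood at 21.1 CPM in Ccr7-positive and 33.3 CPM in resting cDC2 and at 16.2 and 32.4 CPM in cDC1. Ndufv2, of the module that receives electrons from NADH, stood at 49.2 and 68.0 CPM in cDC2 and at 35.9 and 53.6 CPM in cDC1. Past 2-fold were Sdhaf1 (higher) and Ndufaf8 (15.4 against 31.3 CPM) in cDC1, where 6.58% of all genes were at least 2-fold higher and 6.34% lower, and in cDC2 Sdhaf4 (6.65 against 13.4 CPM; 0.952% of all genes). Scaled to the all-gene median, the summed log2 ratio of all members in cDC2 turned to 0.02, whereas that of complex I stayed lower (-0.09).

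Cycling cells had higher levels of these genes, and the median of all measured genes was higher too. Summed CPM were 16324 in cycling and 14331 in resting cDC2 (ratio 1.14, 1.13 to 1.15) and 16007 in cycling and 14100.3 in resting cDC1 (1.14, 1.13 to 1.14). In cDC2, 28 of 82 members were at least 25% higher and 0 lower (32.5% and 6.2% of all measured genes), and in cDC1 30 of 80 higher and 1 lower (38.3% and 6.01%). Both shares are near the background, and 20 of 80 members were higher in both libraries, 25%, against 24.98% of all measured genes. No member passed 2-fold (5.46% of all genes in cDC2 and 7.63% in cDC1 were at least 2-fold higher). The median of all genes was 0.17 in cDC2 and 0.21 in cDC1 on the log2 scale. Cycling cells had fewer ribosomal protein UMIs (19.7% against 22.9% in resting cDC2, and 19.5% against 24.5% in cDC1) and had medians of 19936 and 20278 UMIs per cell, against 11802 and 12459 in resting cells, and the part of either was not tested. Set against that median, the summed ratio was 0.02 in cDC2 and turned to -0.03 in cDC1. Complex III turned in both libraries (-0.06 and -0.11), and complexes IV (-0.02) and V (-0.003) in cDC1. Mitochondrially encoded subunits were lower, with ratios of 0.942 in cDC2 and 0.949 in cDC1.

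Within cycling cells the members varied. Sdhd, a membrane anchor of complex II, stood at 63.0 CPM in cycling and 40.7 CPM in resting cDC2 and at 67.7 and 43.4 CPM in cDC1 (1.55-fold and 1.56-fold). Cox5b, a subunit of complex IV, stood at 332 and 232 CPM in cDC2 and at 344 and 224 CPM in cDC1. Atp5o stood at 208 CPM in cycling and 142 CPM in resting cDC2 and at 194 and 124 CPM in cDC1. These 3 genes were higher in cycling cells of each library than in resting cells of either. Ndufs1 (0.74 and 0.52 on the log2 scale) and Atp5g2 (0.56 and 0.51) were among the higher ones too. Cox7a2l, which helps complexes III and IV join into supercomplexes, ran the other way: 388 CPM in cycling and 443 CPM in resting cDC2, and 342 CPM in cycling and 489 CPM in resting cDC1 (1.43-fold lower in cDC1). Between the cycling cells of the 2 libraries, 7 of 83 members were at least 25% higher in cDC2 and 4 at least 20% lower (19.8% and 23.7% of all genes), and Cox6b2 and Sdhaf1 (34.5 CPM in cDC2, 16.8 CPM in cDC1) passed 2-fold (5.7% of all genes). Uqcrh had the lowest ratio of complex III in each library (-0.08 and -0.23).

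**Figure D5:**
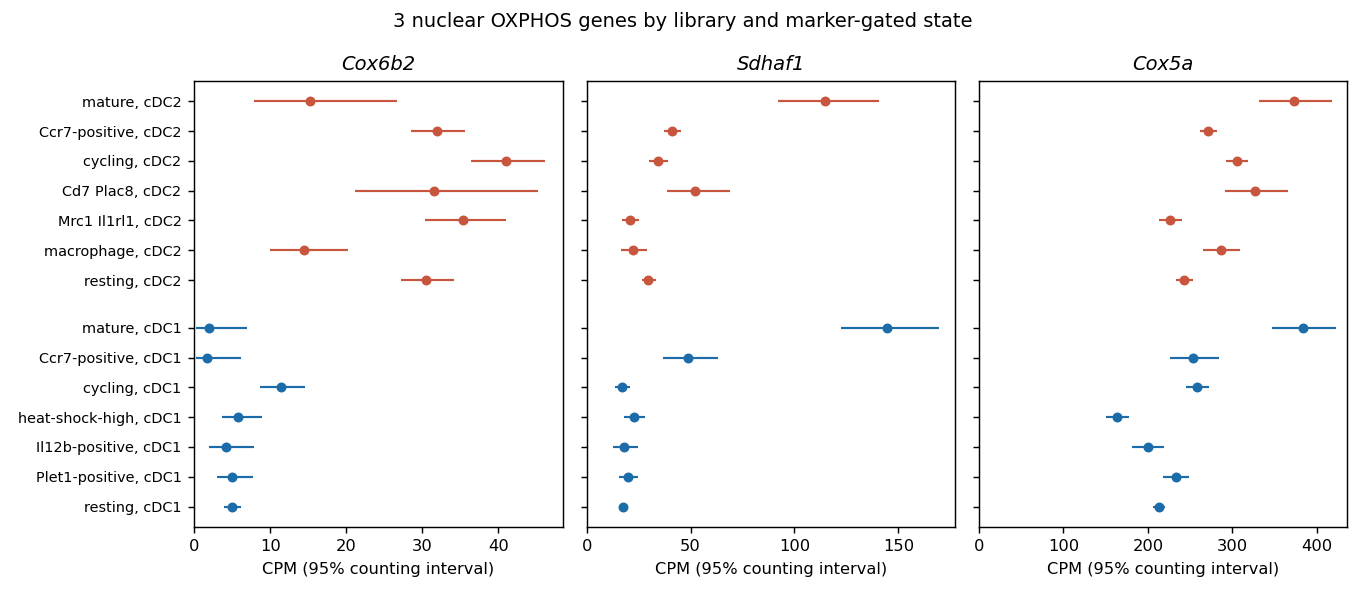
CPM (horizontal, from 0, with 95% counting intervals) of Cox6b2, Sdhaf1 and Cox5a in each marker-gated state of the cDC2 library (top) and the cDC1 library (bottom). Among these states, which leave out unassigned cells, Cox6b2 is at or below 11.4 CPM in every cDC1 group and at or above 14.4 CPM in every cDC2 group. Sdhaf1 and Cox5a are highest in mature cells of both libraries.

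The remaining states were set against resting cells in the same way. Plet1-positive cDC1 (280 cells), marked also by Cd207, had 1.249% of UMIs in these genes, and 29 of 79 members were at least 20% lower (21.9% of all measured genes) and 2 higher (8.81%). Complex I again had the lowest summed ratio of the 5 complexes, with 2773 CPM against 3336 CPM in resting cDC1 (ratio 0.831, 0.814 to 0.849), with Ndufa8 at 34.4 against 58.5 CPM and Ndufs8 at 32.6 against 54.1 CPM. The 2 higher members, Sdhd (59.2 against 43.4 CPM) and Sdhaf2 (22.5 against 14.2 CPM), belong to complex II. Il12b-positive cDC1 (164 cells), which transcribe a subunit of interleukin 12, had 8 of 80 members lower (21.2% of all genes) and 0 higher (11.4%). Heat-shock-high cDC1 (291 cells) had 8 of 81 members higher and 6 lower (25.1% and 15.7% of all genes), with Cox5a among the lower at 164 against 213 CPM. In the cDC2 library, Cd7 Plac8 cells (79 cells) had 1.604% of UMIs in these genes. There 24 of 83 members were higher and 2 lower (39.1% and 15.7% of all genes), and Ndufs1 passed 2-fold at 27.2 against 13.5 CPM (5.86% of all genes). Mrc1 Il1rl1 cells (365 cells) matched resting cells closely, with 0 of 81 members at least 25% higher and 1, Sdhaf1, lower (14.8% and 5.31% of all genes). Macrophage-gated cells had 10 of 82 members higher and 6 lower (47.3% and 13% of all genes), and Ndufaf7 (16.6 against 7.85 CPM) and Cox6b2 passed 2-fold (11.6% of all genes higher and 3.01% lower).

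Other genes that serve the same complexes were set beside the members in lists chosen with earlier results of these data known. Among 6 electron carriers and related genes, 2 were at least 25% higher in cDC2 and 2 at least 20% lower, where 23.2% of all measured genes were higher and 18% lower. Etfb, a subunit of the flavoprotein that brings electrons from fatty acid oxidation, stood at 83.8 CPM in the cDC2 library and 51.6 CPM in the cDC1 library, while Atpif1, the inhibitor of ATP synthase, stood at 258 and 430.2 CPM. Among 7 carriers and pores, 0 were higher in cDC2 and 2 lower, against the same shares, led by Ucp2, an uncoupling protein of the inner membrane, at 527 CPM in cDC2 and 1017 CPM in cDC1 (ratio 0.518, 0.509 to 0.527). Of the measured import genes, 8 of 17 were at least 20% lower and 4 at least 25% higher in mature than in resting cDC2, and 8 of 15 lower and 0 higher in mature cDC1. Among all measured genes 25.7% were lower and 38.9% higher in mature cDC2, and 34.6% lower and 35.2% higher in mature cDC1, shares that also apply to the counts of the next lists. Tomm20, a receptor of the outer membrane, stood at 160.3 CPM in mature and 275 CPM in resting cDC2 and at 147 and 298 CPM in cDC1. Of the measured regulators of mitochondrial biogenesis, 4 of 5 were higher and 1 lower in mature cDC2, and 2 of 3 higher and 0 lower in mature cDC1. Esrra, an orphan nuclear receptor, stood at 26.7 CPM in mature and 11.4 CPM in resting cDC2 and 1.98-fold higher in mature cDC1 (1.27 to 2.99), and Gabpb1, a subunit of an ETS-family factor, at 26.7 and 9.36 CPM in cDC2 and at 24.1 and 4.77 CPM in cDC1. Among mitochondrial ribosomal proteins 15 of 57 were lower and 17 higher in mature cDC2, and 29 of 56 lower and 11 higher in mature cDC1.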

How the data were processed

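Each library's deposited matrix holds UMI counts, not normalized. They were made, per the submitters' processing notes, with Cell Ranger 3.2 on mm10, with Seurat named without a role, while the version written in the matrices is 3.0.2, per the file headers. Barcode selection before deposit, the annotation and strand use are not given in any source used here. The kit was 10x Chromium v3.1, per the labels' protocols.

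Cells were filtered as stated and gated in order: other lineages, mature (at least 3 Fscn1 UMIs per 10000 and 1 Ccr7 UMI), cycling (4 of 14 markers), unassigned (under 3 of 6 identity markers, or the other sort's markers as high), Ccr7-positive (5 per 10000), heat-shock-high (20 per 10000), then Il12b (3), Plet1 (5), Cd7 with Plac8 (1 UMI each) or Mrc1 with Il1rl1 (3). No doublet caller was run and no doublets were removed. Counts were summed per group and scaled to CPM. Levels have exact Poisson intervals and ratios exact conditional binomial ones (numpy 2.4.6, scipy 1.17.1, pandas 2.3.3). The ratio code was also run on simulated counts with known fold changes. Those counts were drawn with counting error only, as the intervals assume, so that run cannot show how the intervals fare with spread between cells or libraries. Coordinates come from GENCODE vM21, which holds all 97 member IDs.

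Members, lists, markers and gates were chosen with earlier results of these data known. Named members are the 3 of highest level per complex, the extremes per complex in each main comparison, those past 2-fold, the isoform groups and those opposed between libraries; further examples were chosen after their values were seen. Alternatives changed the scaling, filters, gates and weighting. Single-gene values of 1 member are not reported here.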

Additional observations from a re-analysis of the deposited data

How the results depend on the processing

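No paired analysis was possible because each group is 1 library. Left out of the totals, ribosomal and mitochondrial UMIs moved the summed log2 ratio of the members to 0.0276 between the libraries and turned it to -0.00875 between resting cells (main values 0.06 and 0.02). The same setting gave -0.24 and -0.45 for mature over resting cells (cDC2 and cDC1; main values -0.15 and -0.28) and 0.12 and 0.0815 for cycling over resting cells (0.19 and 0.18), where 15 members were at least 25% higher in cDC1 (30). Members at least 20% lower in mature cells then numbered 33 of 82 in cDC2 and 51 of 80 in cDC1 (26 and 34). Scaled by the median of ratios, the sums were 0.00957 between the libraries, 0.00541 between resting cells, -0.29 in mature cDC2, 0.0222 in cycling cDC2 and, reversed, -0.0301 in cycling cDC1, with 8 (cDC2) and 9 (cDC1) members higher in cycling cells. Both settings change only the total. With no mitochondrial limit the sums were 0.0697 between libraries and 0.0367 between resting cells; with each cell of equal weight 0.0470 between libraries, -0.18 in mature cDC2 and 0.20 in cycling cDC1; on gates from cells thinned to 5000 UMIs 0.0139 between resting cells; and without cells above 30000 UMIs -0.18 in mature and 0.20 in cycling cDC2. Members at least 25% higher in cDC2 were 9 of 94 measured from 1 UMI and 2 of 67 at a mean of 50 CPM (main 5 of 81), as more or fewer genes were tested. Chosen after seeing the data, a mature gate of 10 Fscn1 UMIs per 10000 gave -0.23 in cDC2, with 39 members at least 20% lower, and all immature non-cycling cells as the comparison group gave -0.23 in mature cDC1 and 0.21 and 0.23 in cycling cDC2 and cDC1. The cause of these other shifts was not tested. Single genes were recomputed for Cox6b2, Sdhaf1, Cox5a, Ndufb5, Ndufa6 and Ndufb10 only. Of their values, 130 of 130 had the main sign and 2 lay outside the main interval. This count includes the 2 settings that change only which genes are measured, which cannot move a gene's ratio. Depth limits mature cells most: 63 and 80 cells hold 786223 and 1038709 UMIs, so a member at 30 CPM rests on few UMIs, and intervals there are wide.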

Other observations

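Genes of neighbouring energy pathways were also counted. One list joined genes of the TCA cycle, which feeds electrons to complexes I and II, with genes of pyruvate dehydrogenase. Of its 17 genes, 8 were at least 25% higher in cDC2 and 0 lower, where 23.2% of all measured genes were higher and 18% lower. Pdha1, a subunit of pyruvate dehydrogenase, stood at 33.4 CPM in the cDC2 library and 18.2 CPM in the cDC1 library, fumarase (Fh1) at 44.6 and 25.9 CPM, and malate dehydrogenase (Mdh2) at 129 and 82.2 CPM. Of 8 antioxidant genes, 3 were higher in cDC2 and 0 lower, Gpx4 at 270 CPM in cDC2 and 164 CPM in cDC1 and Prdx5 at 120 and 81.1 CPM among them.

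In mature cells glycolysis genes were low in both libraries, with summed ratios to resting cells of 0.776 (0.741 to 0.814) in cDC2 and 0.776 (0.745 to 0.808) in cDC1. Of 15 measured genes, 11 were at least 20% lower and 0 higher in cDC2, and 9 lower and 3 higher in cDC1 (25.7% and 34.6% of all measured genes were lower). Ldha, which turns pyruvate into lactate, stood at 142 CPM in mature and 269 CPM in resting cDC2 and at 76.1 and 314 CPM in cDC1, and the hexokinase Hk2 at 120 and 190 CPM in cDC2 and at 26.0 and 126 CPM in cDC1. Gapdh did not follow, at 792 CPM in mature and 755 CPM in resting cDC2 and 864 and 682 CPM in cDC1.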
